A study of Homo sapiens with 6 samples.

Results

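PLBD1 encodes a phospholipase B domain protein, and it was singled out because its transcript level is far lower in HEB knockout human embryonic stem cells than in wild type cells. The set described here holds 5 of the 23591 genes kept from the deposited table: PLBD1, its paralogue PLBD2, and the PLBD1 neighbours ATF7IP, GUCY2C and WBP11. They were picked by gene symbol, PLBD2 for its family and the other three for their place near PLBD1 on the short arm of chromosome 12. Because PLBD1 was chosen for its fall in this very contrast, its values are given as a description, without a test.

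Both groups were cells of H1, a long-established line of human embryonic stem cells, with 3 libraries per genotype: wild type, and HEB KO. HEB is an E protein of the basic helix-loop-helix class and is encoded by TCF12. Per the labels, all cells were kept in defined TeSR-E8 medium on Matrigel without serum, and stranded total RNA libraries were made after removal of ribosomal RNA. The labels do not state how the knockout was made, whether the HEB KO libraries come from 1 clone, or whether replicates were separate cultures, so each p-value reflects the spread of these libraries alone, and that spread may be technical.

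Phospholipase B domain proteins belong to the N-terminal nucleophile hydrolases, which are made as precursors and cleaved into active chains, and they remove fatty acyl chains from phospholipids. PLBD1 was isolated from neutrophils and is found in lysosomes and granules. PLBD2 is a soluble lysosomal protein that carries the mannose 6-phosphate tag used for sorting to lysosomes. E proteins bind DNA as dimers at the E-box, a 6-base site of the form CANNTG.

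The start regions of PLBD1 and PLBD2 are shown because the knockout is of a gene for an E-box binding factor, and PLBD1 but not PLBD2 was far lower in it. The RefSeq promoter table (GRCh38.p14) matched 3 of the 5 genes, PLBD1, PLBD2 and ATF7IP. Each window runs from 250 bases before to 50 bases after the annotated transcript start, written 5′ to 3′ on the strand of the gene, and capitals mark every CANNTG. The window of PLBD1 is chr12:14567834-14568133 on the minus strand, and that of PLBD2 is chr12:113358337-113358636 on the plus strand.
PLBD1: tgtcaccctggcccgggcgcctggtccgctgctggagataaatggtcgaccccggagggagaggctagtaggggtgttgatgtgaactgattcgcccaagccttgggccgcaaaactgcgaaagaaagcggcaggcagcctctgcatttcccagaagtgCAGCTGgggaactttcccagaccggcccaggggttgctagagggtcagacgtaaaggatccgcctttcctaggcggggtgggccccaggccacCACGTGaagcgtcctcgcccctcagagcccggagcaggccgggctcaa
PLBD2: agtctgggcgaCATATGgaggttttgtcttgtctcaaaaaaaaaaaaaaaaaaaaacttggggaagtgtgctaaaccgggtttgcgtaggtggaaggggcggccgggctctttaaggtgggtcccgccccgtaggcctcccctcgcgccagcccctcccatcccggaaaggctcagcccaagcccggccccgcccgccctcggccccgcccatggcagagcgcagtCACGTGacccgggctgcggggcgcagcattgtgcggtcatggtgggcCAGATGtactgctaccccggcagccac

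The PLBD1 window held 2 such sites. CAGCTG began 91 bases before the transcript start, and CACGTG began at base 3 of the transcript. The PLBD2 window held 3 sites, with CATATG beginning 239 bases and CACGTG 24 bases before the start and CAGATG at base 24 after it. Both strands were covered, since CANNTG reads as CANNTG on either strand. Of all 35116 RefSeq windows of this length, 68.7% held at least 1 CANNTG, 36.4% at least 2 and 15.3% at least 3. CAGCTG was in 17.9% of them, CACGTG in 7.26% and CATATG in 3.04%. CAGCTG and CACGTG together were in 1.33%. That joint share was worked out for the pair found in PLBD1 and for no pair of PLBD2 sites, so it does not compare the windows. These are letter matches only and say nothing of binding.

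Levels are given as FPKM, fragment numbers scaled to transcript length and library size, which allows genes to be compared per length. Genes that reached 1 FPKM in at least 3 of the 6 libraries were tested with limma, a linear model fitted across all genes, and a gene was called at a Benjamini-Hochberg adjusted p under 0.05. The targeted gene TCF12 was lower in every HEB KO library, at 6.69 to 14.2 FPKM against 44.2 to 55.7 FPKM in wild type (log2 difference -2.31, SE 0.28, limma adjusted p = 0.0310). That call held without HEB KO library 1 and was lost when any one of the other 5 libraries was left out (limma adjusted p between 0.126 and 0.193). It was also lost with no filter, with scaling to the same summed FPKM and with the replicate number as a block (limma adjusted p = 0.106, 0.331 and 0.0957). HEB KO library 1 stood apart from the other libraries: its FPKM summed to 440703, against 635114 to 714875 elsewhere, and it had the fewest genes at 0 and the most at 1 FPKM or more. Of the 12937 genes tested, 10.5% were at least 2-fold higher and 8.84% at least 2-fold lower in HEB KO library 1 than in the mean of HEB KO libraries 2 and 3, on the FPKM + 1 scale. All 16 embryonic stem cell markers examined passed the filter on low values, and POU5F1, a core pluripotency factor, lay between 327 and 1279 FPKM in the 6 libraries. The summed markers ranged from 3784 to 4657 FPKM in wild type and from 2613 to 4501 FPKM in HEB KO, with HEB KO library 1 lowest. None of the 16 was called, and their log2 differences ran from -1.08 for NANOG to 0.83 for ZSCAN10. Groups did not overlap with HEB KO lower for 2 of the 16 (12.5%, against 11.8% of all genes tested). They did not overlap with HEB KO higher for 2 others (12.5%, against 7.72%).

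PLBD1 was an abundant transcript in wild type cells and a moderate one in HEB KO cells. In order of library number its wild type values were 177, 129 and 146 FPKM, and its HEB KO values were 13.5, 13.2 and 13.3 FPKM. The groups lay far apart, and the HEB KO libraries lay close together. The means were 151 ± 24.8 and 13.3 ± 0.131 FPKM (SD, n = 3 each), a ratio of 11.3, and the log2 difference on the log2(FPKM + 1) scale was -3.39 (SE 0.21). In wild type, between 479 and 626 genes of the table had a higher value than PLBD1, and in HEB KO between 5272 and 5330 did. Lower levels per cell and fewer cells with the transcript cannot be told apart in such bulk samples.

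This fall was the sixth deepest among the genes tested on the log2 scale. PLBD1 was picked for this fall, so its rank and the counts of deep falls given here are a description. A group mean at least 10-fold lower in HEB KO was found for 0.147% of the genes tested. Among the 827 genes with a wild type mean of at least 100 FPKM, 36 were at least 2-fold lower, and PLBD1 was the 1 gene at least 10-fold lower. Scatter within HEB KO was small in the deposited values, with an SD of 0.980% of the mean. Of the 9222 genes with a HEB KO mean of at least 5 FPKM, 19 had a relative SD as small, and the median was 24.4%. HEB KO library 1, which stood apart in other genes, read 1.014 times the mean of libraries 2 and 3 for PLBD1. Both this ratio and the small SD depend on the scaling of the deposited values. The FPKM of HEB KO library 1 summed to 440703, against 670119 and 663792 in libraries 2 and 3. Scatter with libraries scaled to the same sum was not worked out. In wild type the SD of PLBD1 was 16.5% of the mean, near the median of 17.8% over the 8893 genes with a wild type mean of at least 5 FPKM.

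**Figure D1:**
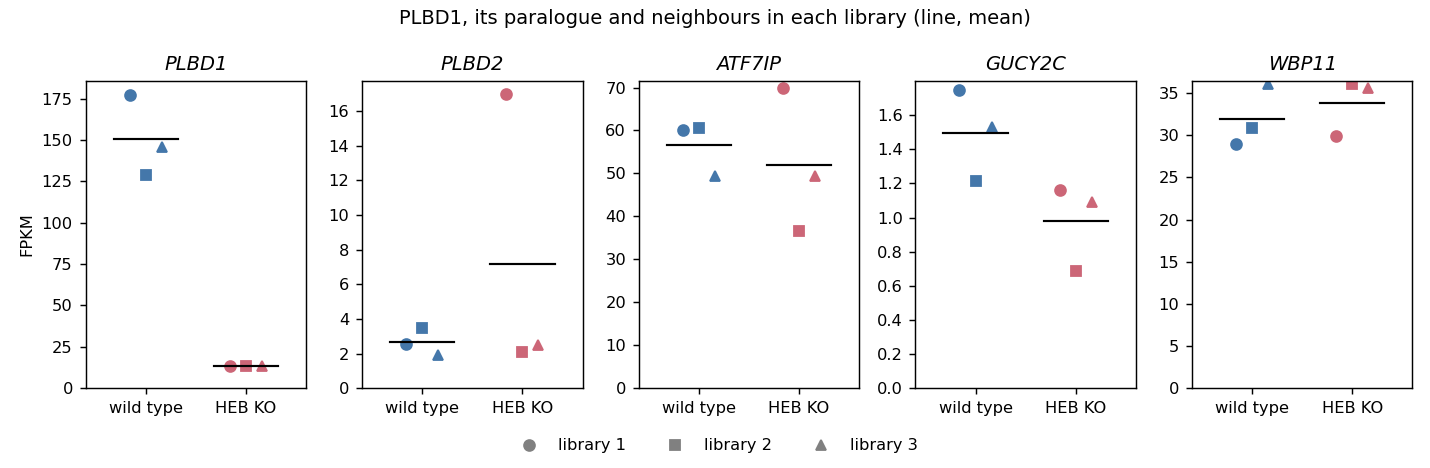
FPKM of the 5 genes in each library, with wild type in blue, HEB KO in red, marker shape for the library number and a line at the group mean; each panel has its own linear axis from 0. PLBD1 is separated between groups, PLBD2 is high in HEB KO library 1 alone, ATF7IP and WBP11 overlap between groups, and GUCY2C is separated by a small gap.

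The transcripts of PLBD1 and its paralogue shared little sequence. The longest open reading frames of the GENCODE v29 transcripts were 1662 bases for PLBD1 and 1770 bases for PLBD2, and 57.1% of 1604 aligned positions were identical. The longest identical stretch between any transcripts of the pair was 19 bases. Of the distinct 31-base stretches of PLBD1 transcripts, 1.69% occurred on the same strand in transcripts of other genes, and 8.64% on the opposite strand. The antisense gene PLBD1-AS1 held 7.09% of the stretches on that strand. PLBD1-AS1 and PLBD1-AS2 overlap PLBD1 in RefSeq, and neither is a row of the table used here. Whether reads were counted by strand is not given in the sources used here, so reads of these antisense genes cannot be told apart from PLBD1 reads.

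PLBD2, the lysosomal paralogue, was a low transcript that did not mirror PLBD1. Its wild type values were 2.54, 3.46 and 1.94 FPKM, against 16.98, 2.12 and 2.48 FPKM in HEB KO. HEB KO libraries 2 and 3 lay within the wild type range, and HEB KO library 1 was above every other library. The means were 2.64 ± 0.766 and 7.19 ± 8.48 FPKM (SD, n = 3 each), and the log2 difference of 0.69 (SE 0.62) did not pass (limma adjusted p = 0.732). Without HEB KO library 1 the log2 difference was -0.13 (limma adjusted p = 0.789).

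In HEB KO library 1, PLBD2 was 7.39 times its mean in libraries 2 and 3. On the FPKM + 1 scale this ratio was 5.45, and 0.642% of the genes tested had a ratio as high in that library. In that library PLBD2 was far above its usual level and PLBD1 was not. The ratio of PLBD1 to PLBD2, both per length, was 69.9, 37.2 and 75.2 in the wild type libraries and 0.792, 6.24 and 5.38 in the HEB KO libraries. PLBD1 was thus the more abundant paralogue in every library except HEB KO library 1. Their summed level was 132 to 180.003 FPKM in wild type and 15.3 to 30.4 FPKM in HEB KO.

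On chromosome 12, ATF7IP lies next to PLBD1 on one side and GUCY2C on the other, with the histone genes HIST4H4 and H2AFJ between GUCY2C and WBP11. PLBD1, GUCY2C and WBP11 are on the minus strand and ATF7IP on the plus strand in GENCODE v29, so ATF7IP and PLBD1 are transcribed toward each other. No gene with a row in the table overlaps PLBD1 in RefSeq.

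ATF7IP encodes a partner that stabilises the histone H3 lysine 9 methyltransferase SETDB1. Its wild type values were 60.2, 60.6 and 49.3 FPKM, against 69.8, 36.5 and 49.3 FPKM in HEB KO. The HEB KO values spanned a wider range than the wild type values and the groups overlapped. The means were 56.7 ± 6.37 and 51.9 ± 16.8 FPKM (SD, n = 3 each), with a log2 difference of -0.17 (SE 0.28, limma adjusted p = 0.860). Its sign turned when libraries were scaled to the same summed FPKM (0.07) or by quantiles (0.0084), and without HEB KO library 2 (0.06). In wild type, PLBD1 stood at 2.12 to 2.95 times ATF7IP, and in HEB KO at 0.193 to 0.361 times.

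GUCY2C encodes the receptor guanylyl cyclase that binds guanylin and uroguanylin in the intestinal epithelium. Its wild type values were 1.75, 1.22 and 1.53 FPKM, against 1.16, 0.685 and 1.09 FPKM in HEB KO. All HEB KO values were below all wild type values, although the highest HEB KO value of 1.16 FPKM lay close to the lowest wild type value of 1.22 FPKM. The means were 1.498 ± 0.267 and 0.980 ± 0.258 FPKM (SD, n = 3 each), and the log2 difference of -0.34 (SE 0.21) did not pass (limma adjusted p = 0.626). It was the 1 member to pass the filter in fewer than 6 libraries, at 5 of 6. PLBD1-AS1 also overlaps GUCY2C, and 2.24% of the 31-base stretches of GUCY2C transcripts lie on its opposite strand.

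WBP11 encodes a spliceosome-associated protein that binds WW domains and protein phosphatase 1. Its wild type values were 28.96, 30.9 and 36.1 FPKM, against 29.9, 36.02 and 35.6 FPKM in HEB KO. The groups covered nearly the same range. The means were 31.97 ± 3.68 and 33.9 ± 3.41 FPKM (SD, n = 3 each), with a log2 difference of 0.08 (SE 0.20, limma adjusted p = 0.912). Of the 31-base stretches of WBP11 transcripts, 14.9% were shared on the same strand with other genes, and 8.29% were in the pseudogene WBP11P1, which was listed at 0 in all 6 libraries.

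All 5 genes passed the filter on low values. By limma with an adjusted p threshold of 0.05, 0.24% of the genes tested were called, 0.216% as lower and 0.0232% as higher in HEB KO, and none of PLBD2, ATF7IP, GUCY2C and WBP11 was called. At an unadjusted p under 0.05, which 10.05% of the genes tested met, none of these 4 was called either. Groups did not overlap with HEB KO lower for 11.8% of the genes tested and with HEB KO higher for 7.72%, and of these 4 genes GUCY2C did so. Their log2 differences lay between -0.34 and 0.69, against -3.39 for PLBD1.

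The wider neighbourhood took in 24 further genes, the 12 on either side of PLBD1 with a row in the table, ATF7IP, GUCY2C and WBP11 left out. Only 9 of them passed the filter, and 12 were below 1 FPKM in every library. None of the 9 was called in either direction (smallest limma adjusted p = 0.605), none was called at an unadjusted p under 0.05, and 0 had groups that did not overlap. Their log2 differences ran from -0.53 to 0.85 with a median of 0.07, against a median of -0.04 over all genes tested.

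The nearest of these genes on the ATF7IP side were EMP1, C12orf36 and GRIN2B, of which none passed the filter. GRIN2B, an NMDA receptor subunit of neurons, was between 0.107 and 0.820 FPKM in the 6 libraries, and EMP1, a tetraspan membrane protein, between 0.178 and 0.384 FPKM. On the GUCY2C side the nearest were HIST4H4, H2AFJ and C12orf60. HIST4H4, which encodes histone H4, had wild type values of 77.4, 142 and 278 FPKM, against 87.6, 383 and 543 FPKM in HEB KO. It varied several-fold within each group, rising with library number in both, and the groups overlapped (log2 difference 0.85, SE 0.73, limma adjusted p = 0.716). With the replicate number as a block its SE was 0.31 (limma adjusted p = 0.321). Its log2 difference was 1.64 without HEB KO library 1, 0.33 without HEB KO library 3, 0.59 without HEB KO library 2, 0.40 without wild type library 1 and 1.32 without wild type library 3. H2AFJ, a histone H2A variant, averaged 4.01 ± 1.16 and 4.20 ± 0.855 FPKM, and C12orf60 averaged 1.47 ± 0.673 and 1.85 ± 0.0831 FPKM (SD, n = 3 each). C12orf60 overlaps C12orf69 in RefSeq, so its value is uncertain.

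**Figure D2:**
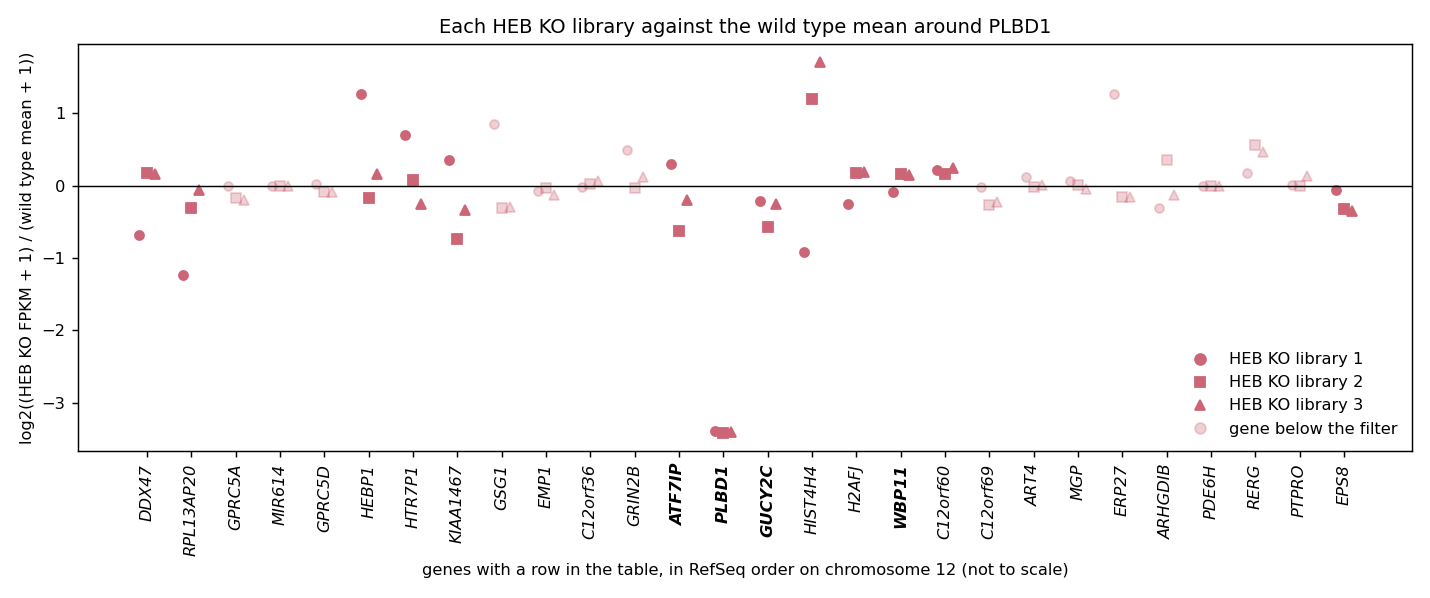
Log2 ratio of each HEB KO library to the wild type mean, both plus 1 FPKM, for PLBD1 and the genes around it in RefSeq order, with genes below the filter in pale colour and distances not to scale. PLBD1 lies between -3.42 and -3.39 in all 3 libraries, and the lowest value of any other gene shown is -1.23, for RPL13AP20 in library 1.

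The short arm of chromosome 12, which also carries NANOG and GDF3, had 312 genes in the table besides PLBD1, ATF7IP, GUCY2C and WBP11. Of these 167 were tested and none was called, with a median log2 difference of -0.08. At an unadjusted p under 0.05 there were 10, all lower in HEB KO, or 5.99%, against 5.42% of all genes tested that were lower and 4.63% that were higher at that level. Groups did not overlap with HEB KO lower for 26 genes (15.6%, against 11.8% of all genes tested) and with HEB KO higher for 2 (1.198%, against 7.72%). GDF3, a ligand of the TGF-beta family, had the deepest difference of the arm, at -1.94 (limma adjusted p = 0.155). Its wild type values were 52.8, 19.7 and 26.9 FPKM, against 4.86, 8.04 and 9.36 FPKM in HEB KO. The other genes under that unadjusted level, named after their values were seen, were WNT5B, CD9, NANOG, CDKN1B, PDE3A, GOLT1B, FAR2, TMTC1 and AMN1. They include a pluripotency factor (NANOG), a surface tetraspanin (CD9) and a cell cycle inhibitor (CDKN1B), with limma adjusted p between 0.268 and 0.486. Without both libraries numbered 1, 6 genes of the arm were called, WNT5B, PTMS, GDF3, CDKN1B, GOLT1B and AMN1, all lower in HEB KO. They make up 3.59% of its tested genes, against 3.71% of all genes tested that were called in that setting in either direction. By direction, the arm's 3.59% called as lower was above the 2.23% called as lower over all genes tested. None of the arm was called as higher, against 1.48% of all genes tested. These differences in share were not tested. Of the arm's genes with the highest levels, GAPDH averaged 2468 and 2615 FPKM and the small Cajal body RNA gene SCARNA10 averaged 2218 and 1276 FPKM (wild type first), and neither was called. SCARNA10 overlaps NCAPD2, so their reads cannot be told apart with certainty, and the FPKM of so short an RNA is imprecise.

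Lysosomal genes did not pass the test, and none had a difference near that of PLBD1. Of 50 genes for lysosomal hydrolases and membrane proteins, 48 were tested and none was called, with a median log2 difference of -0.18 and a range from -0.83 to 0.95. PSAP, the precursor of the saposins that present lipids to lysosomal enzymes, averaged 263 ± 40.8 and 218 ± 40.4 FPKM. CTSC, the protease that activates neutrophil serine proteases, averaged 243 ± 119 and 198 ± 8.42 FPKM (SD, n = 3 each). Both were the highest of the list and had groups that overlapped.

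At an unadjusted p under 0.05 there were 4 lysosomal genes, named after their values were seen. With 1 lower (2.08%) and 3 higher (6.25%), against 5.42% and 4.63% of all genes tested, the lower share was below that over all genes and the higher share above it. CTSD, the main aspartic protease of lysosomes, had wild type values of 20.2, 37.6 and 24.6 FPKM, against 58.9, 53.6 and 45.7 FPKM in HEB KO, higher in all HEB KO libraries (log2 difference 0.95, limma adjusted p = 0.330). MCOLN1 and CLN3 were also higher in all HEB KO libraries, and GALC, which breaks down galactosylceramide, was lower in all of them, at a log2 difference of -0.83 (limma adjusted p = 0.363). In this list 5 genes had all HEB KO values below wild type and 3 had all above, or 10.4% and 6.25%, near the shares over all genes tested. Without both libraries numbered 1, the protease gene CTSB was called as lower (log2 difference -0.93, limma adjusted p = 0.0427). That is 2.08% of the list, near the 2.23% called lower over all genes tested in that setting.

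In HEB KO library 1, where PLBD2 was high, 6 of the 48 tested genes (12.5%) were at least 2-fold above the mean of HEB KO libraries 2 and 3, near the 10.5% of all genes tested, and none was 2-fold below, against 8.84%. TPP1, a lysosomal peptidase, was at 21.1 FPKM there, and the other 5 libraries lay between 2.39 and 5.24 FPKM. GAA, the acid alpha-glucosidase, was at 10.8 FPKM there and at 2.14 to 4.67 FPKM elsewhere. The others, CTSB, ARSA, IDS and SGSH, also encode lysosomal hydrolases. What part the make-up of that library had in these values was not tested.

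Of 12 genes for sorting to lysosomes and the TFEB family, 10 were tested and none was called, with a median of -0.05. LAPTM4B, a lysosomal membrane protein and the highest of this list, had wild type values of 951, 466 and 493 FPKM, against 294, 306 and 389 FPKM in HEB KO. It was lower in all HEB KO libraries and highest in wild type library 1 (log2 difference -0.88, SE 0.39, limma adjusted p = 0.508). LAPTM4A averaged 174 ± 59.2 and 116 ± 26.1 FPKM (SD, n = 3 each) with overlapping groups. In this list 1 gene had all HEB KO values below wild type (10%, against 11.8% of all genes tested). There were 2 with all above (20%, against 7.72%), GNPTG and NAGPA, named after their values were seen. Both serve in making the mannose 6-phosphate tag. GNPTG was at 5.07 to 5.36 FPKM in wild type and 7.72 to 8.04 FPKM in HEB KO (log2 difference 0.50, limma adjusted p = 0.396). It was the 1 gene of the list at an unadjusted p under 0.05 (10%, against 4.63% of all genes tested that were higher at that level).

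No enzyme tested that acts on phospholipids or their lyso forms passed either. Of 36 phospholipases and lysophospholipases 26 were tested and none was called, with a median of 0.01 and a range from -0.47 to 0.76. LYPLA1, a lysophospholipase and protein depalmitoylase, averaged 93.9 ± 23.5 and 70.3 ± 18.4 FPKM, and PAFAH1B2, a catalytic subunit of platelet-activating factor acetylhydrolase, 80.3 ± 11.4 and 64.9 ± 19.1 FPKM. At 151 FPKM, the wild type mean of PLBD1 was above every value of every gene in this list, of which the highest was 121 FPKM. Of 13 lysophospholipid acyltransferases, which put acyl chains back, all 13 were tested and none was called, with a median of -0.05. LPCAT1 averaged 98.6 ± 49.7 and 88.5 ± 26.4 FPKM and AGPAT5 37.3 ± 19.2 and 37.0 ± 0.814 FPKM (SD, n = 3 each). MBOAT1 and AGPAT2, named after their values were seen, were the lowest and highest of that list. Their log2 differences were -0.91 (limma adjusted p = 0.319) and 0.68. In this list 2 of the 13, MBOAT1 among them, had all HEB KO values below wild type (15.4%, against 11.8% of all genes tested). Another 1 had all above (7.69%, against 7.72%).

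**Figure D3:**
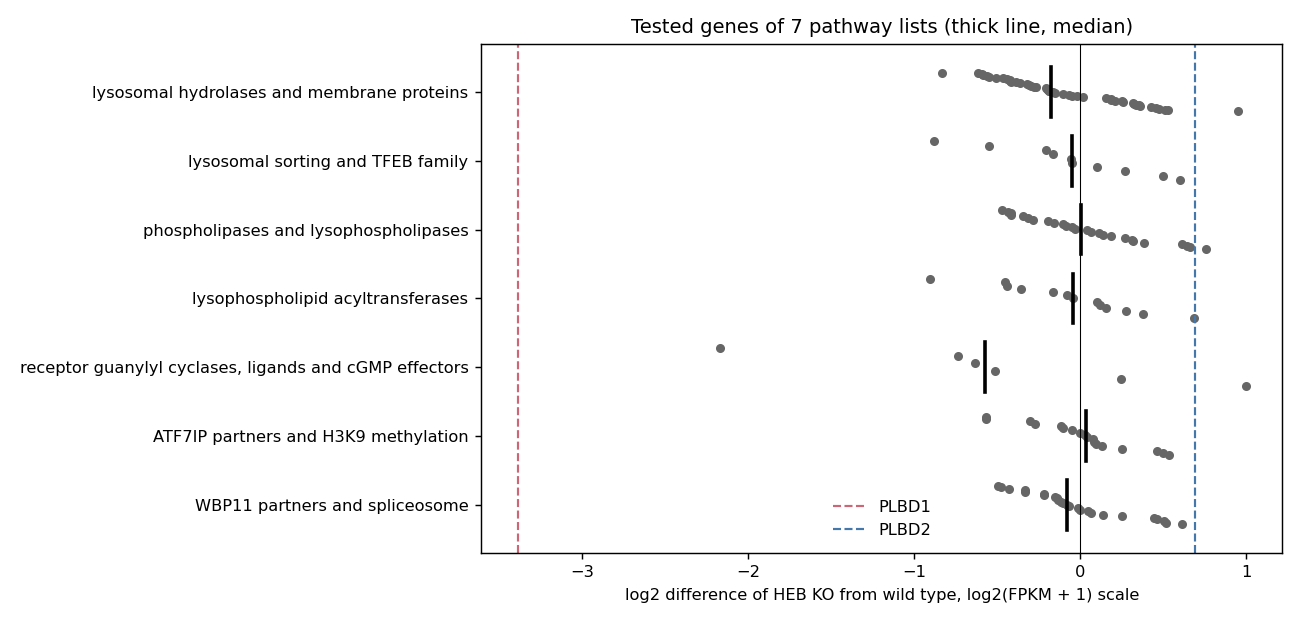
Log2 difference of HEB KO from wild type on the log2(FPKM + 1) scale for each tested gene of 7 lists, 1 point per gene with a thick line at the list's median; dashed lines mark PLBD1 at -3.39 and PLBD2 at 0.69. No point of these lists lies as low as PLBD1, and GUCY1B3 at -2.17 is the nearest.

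Among 17 genes of receptor guanylyl cyclases, their ligands and cGMP effectors, 6 were tested and 1 was called, as lower. Over all genes tested, 0.216% were called as lower. The gene called was GUCY1B3, which encodes a subunit of the nitric oxide-sensitive guanylyl cyclase. Its wild type values were 11.8, 8.19 and 13.8 FPKM, against 2.50, 1.1995 and 1.47 FPKM in HEB KO. It fell, with all HEB KO libraries below wild type (log2 difference -2.17, SE 0.27, limma adjusted p = 0.0310). That call held without HEB KO library 1 and was lost when any one of the other 5 libraries was left out (limma adjusted p between 0.0880 and 0.152), with no filter, with scaling to the same summed FPKM and with the replicate number as a block (limma adjusted p = 0.134, 0.289 and 0.0514). In all, 4 of the 6 had every HEB KO value below wild type (66.7%, against 11.8% of all genes tested). At an unadjusted p under 0.05, 3 of the 6 were lower (50%, against 5.42% of all genes tested) and 0 higher. A low gene can pass the filter through its higher group alone, and these differences in share were not tested. PDE5A, the phosphodiesterase that breaks down cGMP, had wild type values of 20.9, 19.2 and 20.8 FPKM, against 11.1, 10.2 and 14.4 FPKM in HEB KO (limma adjusted p = 0.319). NPR1, the receptor of atrial natriuretic peptide, resembled PLBD2, with 15.8 FPKM in HEB KO library 1, above the other 5 libraries at 1.57 to 2.50 FPKM. PRKG1 and PRKG2, cGMP-dependent protein kinases, were the other 2 with every HEB KO value below wild type. GUCY1B3 and PDE5A were above 1 FPKM in every library, so they did not pass the filter through wild type alone. The 11 genes that did not pass the filter included the guanylin genes GUCA2A and GUCA2B.

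None of the tested partners of ATF7IP and WBP11 was called. Of 18 ATF7IP partners and H3K9 methylation genes, all 18 were tested and none was called, with a median of 0.03. TRIM28, the corepressor that recruits SETDB1, averaged 177 ± 56.3 and 253 ± 64.6 FPKM, and the heterochromatin protein gene CBX3 141 ± 6.24 and 125 ± 50.1 FPKM. Of 25 WBP11 partners and spliceosome genes all 25 were tested and none was called, with a median of -0.08. PPP1CC, a catalytic subunit of protein phosphatase 1, averaged 296 ± 30.1 and 233 ± 94.0 FPKM, and SNRPB, a core protein of spliceosomal particles, 211 ± 40.1 and 231 ± 111 FPKM (SD, n = 3 each). In this list 6 of 25 genes (24%) were at least 2-fold lower in HEB KO library 1 than in libraries 2 and 3, against 8.84% of all genes tested, while WBP11 was at 0.836 times their mean.

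The 8 genes whose centred log2(FPKM + 1) profile over the 6 libraries lay nearest to that of PLBD1, by root mean square difference, included HOXB-AS5 (0.184), EBF2 (0.369), ZNF681 (0.443), LOC100130155 (0.490), NODAL (0.589), ZIC1 (0.616) and FOXC1 (0.629). In RefSeq, HOXB-AS5 overlaps PRAC and ZNF681 overlaps RPSAP58, so their values are uncertain where reads were not split by strand. These genes share the step between groups that picked PLBD1, so their likeness is a description. That likeness is measured with 1 FPKM added. With 0.1 FPKM added, the log2 differences were -5.96 for HOXB-AS5 and -5.32 for EBF2, against -3.48 for PLBD1. HOXB-AS5, EBF2, ZNF681, LOC100130155 and ZIC1 were under 1 FPKM in every HEB KO library, so they passed the filter through wild type alone. EBF2, ZIC1 and FOXC1 encode developmental transcription factors, and NODAL encodes the TGF-beta family ligand that maintains primed pluripotency and drives mesendoderm formation. Wild type means were 4.42 to 8.61 FPKM for these genes other than NODAL, which averaged 50.3 FPKM. PLBD1 kept 13.3 FPKM in HEB KO, whereas the mean of HOXB-AS5, EBF2, ZNF681, LOC100130155, ZIC1 and FOXC1 there lay between 0.0507 and 0.607 FPKM. TCF12, the targeted gene, stood at 0.653 from PLBD1, while PLBD2, ATF7IP, GUCY2C and WBP11 stood at 1.53 to 2.21.

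**Figure D4:**
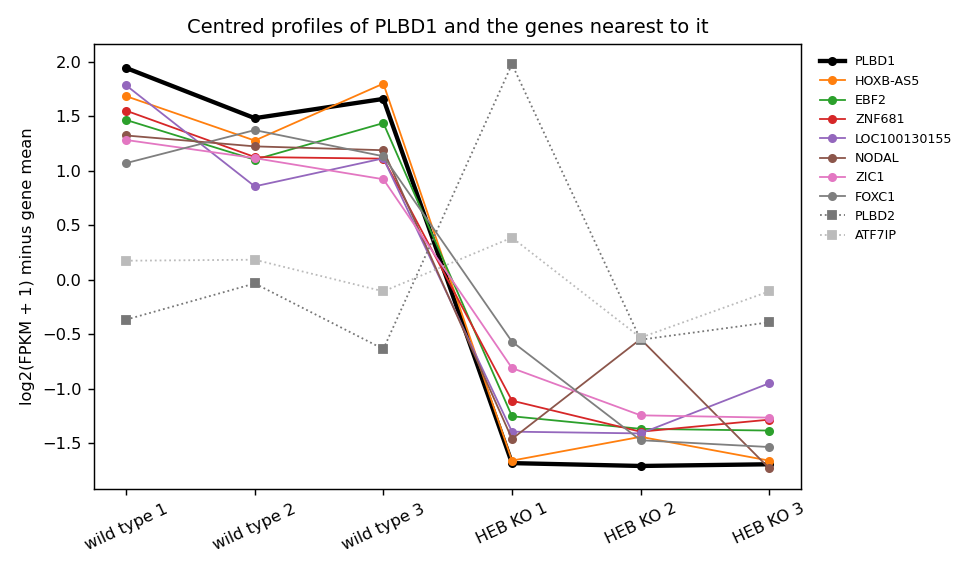
Log2(FPKM + 1) minus the gene's own mean in each of the 6 libraries for PLBD1 (thick black line), 7 genes with the nearest profiles (solid lines) and PLBD2 and ATF7IP (dotted lines). PLBD1 is nearly level over the HEB KO libraries, and PLBD2 peaks in HEB KO library 1.

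Since PLBD1 and GUCY2C are known from neutrophils and the gut, markers of those cells were read as well. Of 18 myeloid markers 15 were below 1 FPKM in every library, and S100A8 and ELANE were at 0 in all 6. Their summed level was 13.4 to 18.1 FPKM in wild type and 13.5 to 18.2 FPKM in HEB KO, most of it AIF1, which averaged 13.3 ± 2.64 and 11.9 ± 3.73 FPKM. LYZ, which encodes lysozyme, lay between 0.572 and 2.63 FPKM. All 12 intestinal epithelium markers, VIL1 and TFF3 among them, were below 1 FPKM in every library, with sums of 0.515 to 0.829 FPKM in wild type and 0.670 to 1.08 FPKM in HEB KO. The 10 fibroblast and mesenchyme markers summed to 213 to 266 FPKM and to 181 to 313 FPKM, most of it THY1, which embryonic stem cells also express, and COL1A2 was at 46.3 FPKM in HEB KO library 1, above the 7.97 to 20.5 FPKM elsewhere. Of the 4 fibroblast markers tested, 1 had every HEB KO value above wild type (25%, against 7.72% of all genes tested). This was the collagen gene COL1A1, named after its values were seen. It was at 1.14, 1.24 and 0.391 FPKM in wild type libraries, against 39.7, 3.21 and 1.74 FPKM in HEB KO (log2 difference 2.05, SE 0.89, limma adjusted p = 0.502). The part of these markers in the PLBD1 values was not tested. The range of each of these sums in HEB KO overlapped that in wild type.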

How the data were processed

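Total RNA was profiled in 3 wild type and 3 HEB KO libraries. The submitters' processing notes name hg19, Bowtie2 2.2.6 and TopHat2 2.1.0. The deposited table holds 1 value per gene symbol and library, read here as FPKM computed by the authors, since no label names the unit, the columns sum to unequal totals and short RNAs are highest. How genes were quantified, with which annotation and whether by strand, is not given in the sources used here. FPKM holds no read counts, so depth is unknown, and no count model or counting interval was used. Of 23619 entries, 28 with a date in place of a symbol were left out, and 22576 of the remaining 23591 symbols matched RefSeq (GRCh38.p14), which served for gene order.

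Values were tested as log2(FPKM + 1) in limma 3.58.1 (R 4.3.3, intensity trend). The filter kept 12937 genes that reached 1 FPKM in 3 or more of the 6 libraries, with Benjamini-Hochberg adjustment over all of them at 0.05. Log2 differences on this scale understate changes of low genes. Ratios are of group means of FPKM. The fit was tested on simulated data. Members and lists were chosen with earlier results of these data known. The genes named were the 5 members, TCF12, the 3 nearest neighbours on either side, up to 3 called genes of each list or else its 2 highest, and the 8 genes with profiles nearest to PLBD1, of which 1 is not reported here. The 15 alternatives covered pseudocount, filter, scaling, variance trend, replicate block and libraries left out.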

Additional observations from a re-analysis of the deposited data

How the results depend on the processing

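In all 15 alternative settings PLBD1 stayed lower in HEB KO. PLBD1 was picked for this fall and its groups lie far apart, so the unchanged sign gives no further support. Its log2 difference of -3.39 was -3.07 with a pseudocount of 5, which lowers it by construction, -3.16 with libraries scaled to the same summed FPKM, and -3.50 to -3.27 with single libraries left out. That scaling moved the median over all genes tested from -0.04 to 0.17. The count of genes called, 31, was 11 with no filter, 18 with a filter at 5 FPKM, 6 with the same summed FPKM, 10 with the replicate block, 480 without both libraries numbered 1, and 7 to 76 with single libraries left out. For PLBD2 the log2 difference was -0.14 without both libraries numbered 1 and -0.13 to 1.14 with single libraries left out. For ATF7IP it was 0.0084 with quantile normalization, 0.067 with the same summed FPKM and -0.40 to 0.056 with single libraries left out. None of PLBD2, ATF7IP, GUCY2C and WBP11 was called in any setting in which it was tested.

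The guanylyl cyclase list had 0 genes called with no filter, with the same summed FPKM and with the replicate block, and 0 to 1 with single libraries left out. Without both libraries numbered 1, the lysosomal hydrolase list had 1 called and the short arm of chromosome 12 had 6. The neighbourhood of PLBD1 and the lists of lysosomal sorting, phospholipase, acyltransferase, ATF7IP partner and WBP11 partner genes kept a count of 0 in the 15 settings. Marker lists were counted in 1 of these settings, without both libraries numbered 1. There 2 of 16 embryonic stem cell markers were called as higher (12.5%, against 1.48% of all genes tested). Among named genes that were not called, with quantile normalization the log2 difference turned to -0.040 for H2AFJ, 0.034 for CTSC, 0.17 for LPCAT1 and 0.32 for GAPDH. With the same summed FPKM it was 0.046 for CTSC, 0.16 for LPCAT1 and 0.23 for GAPDH. Without both libraries numbered 1 it was 0.16 for CTSC, 0.076 for LPCAT1, 0.12 for CBX3 and 0.22 for GAPDH, and with a pseudocount of 0.1 it was -0.00076 for SNRPB. With single libraries left out it ranged from -0.13 to 0.22 for H2AFJ, -0.40 to 0.18 for CTSC, -0.40 to 0.30 for LPCAT1, -0.11 to 0.48 for AGPAT5, -0.48 to 0.12 for CBX3, -0.26 to 0.50 for SNRPB and -0.38 to 0.46 for GAPDH. Over the named genes that were called, 99 values stayed past the threshold and 49 did not. Filters alter the set of genes tested, and a left-out library leaves fewer samples. What caused the remaining shifts was not tested.

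Correlations between the deviations of libraries with the same number were 0.262, -0.0399 and 0.269. They were not compared with those between libraries of unlike number, so they cannot settle whether the numbers pair the samples. The main fit took the samples as unpaired. With the replicate block the log2 differences of PLBD1, PLBD2, ATF7IP, GUCY2C and WBP11 were -3.39, 0.69, -0.17, -0.34 and 0.08. Precision of low values such as those of GUCY2C is unknown without counts.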
